A study of Bos taurus with 8 samples.

Results

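CD14+ CSF1R+ monocytes of cattle blood were described here in 4 single-cell RNA sequencing (scRNA-seq) libraries, 1 without LPS and 3 with LPS. A barcode was taken as a monocyte when it held at least 200 genes and 2000 UMIs (unique molecular identifiers, each standing for 1 counted RNA molecule), at least 2 UMIs of CD14, at least 1 UMI of CSF1R and no UMI of CD3E or MS4A1. No upper limit was set on the genes of a barcode. The rule found 729 of the 30756 barcodes in the 4 libraries. The cells were chosen by their measured UMIs of CD14, CSF1R, CD3E and MS4A1, so the values of these genes are a description. Whole blood from the tail vein of 4 lactating female Holstein cattle, all 2 years old, was combined into a single pool and divided into 4 parts before treatment. One part received no LPS, and the others were exposed for 2, 4 or 8 h to 2 µg/ml of LPS. Values given 4 at a time below stand in the order no LPS, 2 h, 4 h, 8 h. Peripheral blood mononuclear cells were isolated after the treatment, and each part gave 1 scRNA-seq library. The animals cannot be told apart within a library, and no incubation time is given for the part without LPS, so LPS and time in incubation cannot be told apart. Each treatment had 1 library, so no difference below has a replicate check and no test was made.

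Monocytes are phagocytes of the blood that sense microbes and can become macrophages or dendritic cells in tissue. CD14 hands LPS to TLR4 and its partner MD-2, and the receptor complex then drives NF-kB, MAP kinase and interferon programmes. These programmes turn on cytokines, prostaglandin synthesis and their own inhibitors, while several receptors of the resting cell are known to be turned down. CSF1R is the receptor for the growth factor CSF1, on which monocytes and macrophages depend.

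The libraries held 8490, 10429, 7977 and 3860 barcodes with 58038800, 63770426, 56453080 and 30902952 UMIs. No monocyte barcode occurred as a monocyte barcode in another library. Levels below are CPM, the UMIs of a gene scaled to 1000000 UMIs summed over the monocytes of a library. Those sums were 7362108, 2999154, 1028495 and 1102857 UMIs. The 3' kit counts molecules, so levels were not divided by gene length. Intervals are 95% intervals (exact Poisson for a level, exact binomial for a share) that cover counting error only. T cells served as the reference for RNA outside its own cell: 13344 barcodes with at least 1 UMI of CD3E and none of CD14, CSF1R or MS4A1. Barcodes with a CD14 or CSF1R UMI were left out of them, so their values can understate monocyte RNA outside monocytes. By how much was not tested. For shares of cells with a UMI, every barcode was thinned at random to 2000 UMIs.

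The monocytes made up 6.42% of the barcodes past the gene and UMI minimum without LPS (470 of 7321, 5.87 to 7.01%). At 2 h the share was 1.72% (158 of 9212, 1.46 to 2.00%), at 4 h 0.701% (51 of 7279, 0.522 to 0.920%) and at 8 h 1.71% (50 of 2924, 1.27 to 2.25%). The share was lowest at 4 h, and the intervals of 2 h and 8 h overlapped. Any number of CD3E and MS4A1 UMIs would have given 11.4%, 3.31%, 2.13% and 6.40%. CD3E or MS4A1 UMIs excluded 368, 147, 104 and 137 barcodes that met the CD14 and CSF1R minimums. At 4 h and 8 h this was more than the rule kept, so the shares also depend on this exclusion. Because the blood was treated before the mononuclear cells were isolated, loss of cells and less RNA of the chosen genes per cell cannot be told apart in these shares.

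**Figure D1:**
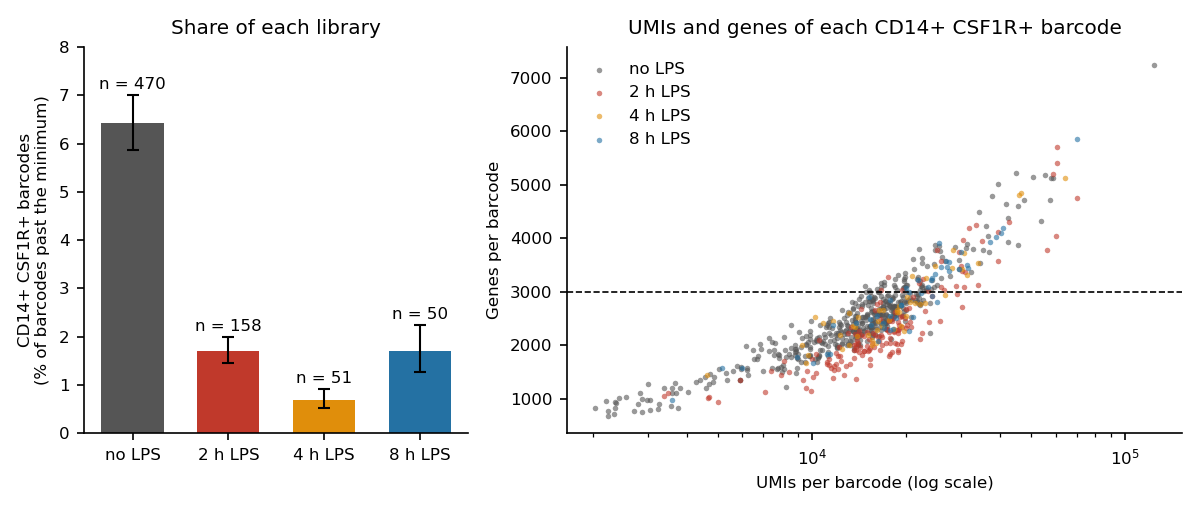
Left, share of each library's barcodes past the gene and UMI minimum (percent) that were CD14+ CSF1R+ monocytes, with exact binomial 95% intervals. Right, UMIs (log scale) and genes of each of the 729 monocytes, with a dashed line at 3000 genes, which 80, 30, 12 and 21 monocytes of the 4 libraries exceeded.

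The monocytes were deeper than the T cells. Their median UMI counts were 14753.5, 16544.5, 18292 and 20365.5, against 4268 to 5653.5 in the T cells. The rule needs UMIs of both CD14 and CSF1R, so it favours deep barcodes, and its part in this gap was not tested. Barcodes with enough CD14 but no CSF1R, CD3E or MS4A1 UMI had medians of 8028, 11469, 11097 and 9978 UMIs. The monocytes had a median of 2422, 2162.5, 2542 and 2871 genes. More than 3000 genes were found in 17.0%, 19.0%, 23.5% and 42.0% of the monocytes, the last with an interval of 28.2 to 56.8%. Thinned to 2000 UMIs, they had a median of 738.5, 630, 711 and 730 genes in the same order, so the 8 h monocytes no longer had the most genes at equal depth. The 2 h monocytes had the fewest genes both before and after thinning. Median mitochondrial shares lay between 1.32% and 1.6%.

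The given markers VCAN, LYZ and CD68, which the rule did not use, were present in every library. VCAN, a matrix proteoglycan of monocytes, was at 1329, 671, 354 and 513 CPM. LYZ, lysozyme, was at 370, 305, 291 and 267 CPM, and the endosomal glycoprotein CD68 at 783, 440, 572 and 895 CPM. VCAN was thus highest without LPS and had UMIs in 80.2%, 65.2%, 47.1% and 48.0% of the thinned monocytes, against at most 0.840% of the T cells. CD14 itself was at 2085, 1279, 1633 and 1891 CPM and CSF1R at 162, 92.7, 101 and 126 CPM.

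Markers of other cells were mostly low. The 10 T cell markers summed to between 6.35 and 16.5 CPM (637 to 739 CPM in the T cells), and 1, 4, 2 and 6 of them were at 0. The 10 B cell markers summed to between 10.9 and 53.5 CPM, against 2234 to 3043 CPM in B cells, which were barcodes gated on MS4A1, a member of this list that the rule kept at 0 in the monocytes. Because the rule left out barcodes with CD3E or MS4A1 UMIs, the low T and B cell sums depend in part on the selection. The granulocyte list lay between 27.2 and 73.9 CPM and the platelet list between 5.44 and 15.2 CPM. The NK cell list was at 2027, 3417, 2516 and 1871 CPM, nearly all of it from the chemokine CCL5 at 1959, 3346, 2432 and 1833 CPM. The dendritic cell list was at 1009, 1119, 1109 and 1038 CPM, nearly all of it from the transcription factor BATF3 at 981, 1091, 1082 and 1004 CPM, while CLEC9A, XCR1 and ZBTB46 were at 0 in every library. The plasma cell list was at 737, 1396, 958 and 218 CPM. It was carried without LPS, at 2 h and at 4 h by JCHAIN, which joins antibody polymers, at 454, 764, 524 and 6.35 CPM, and by MZB1, a chaperone of antibody assembly, at 149, 292, 179 and 2.72 CPM (3 UMIs at 8 h). JCHAIN had UMIs in 17 of 470 thinned monocytes without LPS (3.62%, 2.12 to 5.73%). The share of the T cells, 4.08%, lay within that interval. Their JCHAIN level was 246, 305, 176 and 74.7 CPM, below that of the monocytes except at 8 h. The JCHAIN shares of the monocytes were 6.33% (3.08 to 11.3%) at 2 h and 7.84% at 4 h. At 8 h 0 of 50 thinned monocytes held a UMI, which allows a share of up to 6.0% by a limit of 3 counts and up to 7.11% by the exact binomial bound. A single barcode held 37.7%, 30.7% and 76.4% of the JCHAIN UMIs without LPS, at 2 h and at 4 h. Most JCHAIN UMIs of these 3 libraries came from monocytes above 3000 genes, with 3025 there against 321 in the others without LPS, 2280 against 10 at 2 h and 528 against 11 at 4 h. The part of other cells' RNA in these values was not tested.

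At the edges of the rule, 8, 2, 0 and 1 monocytes had exactly 2 CD14 UMIs, and 2, 2, 0 and 0 barcodes outside had exactly 1. Barcodes with enough CD14 but no CSF1R UMI numbered 195, 139, 57 and 19. Their VCAN was at 1247, 708, 304 and 294 CPM and their IL1B at 8713, 20307, 14169 and 14674 CPM, against 7976, 19158, 13745 and 13880 CPM of IL1B in the monocytes. Barcodes that met the CD14 and CSF1R minimums but held CD3E or MS4A1 numbered 368, 147, 104 and 137. These had more genes (medians 3558.5, 3519, 4197.5 and 4948), and their FTH1 was at 53035 CPM without LPS, against 77245 CPM in the monocytes. Whether they were 2 cells in 1 droplet was not tested.

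Without LPS the monocytes already carried large amounts of chemokine RNA. FTH1, the heavy chain of the iron store ferritin, was highest at 77245 CPM. Next came the neutrophil-attracting chemokine CXCL5 at 71238 CPM, the monocyte attractant CCL2 at 33441 CPM and the chemokine CXCL2 at 29253 CPM. The other leading genes were SRGN, a granule proteoglycan, at 15132 CPM, the actin ACTB at 14091 CPM, the chemokine GRO1 at 11293 CPM, IL1B at 7976 CPM, B2M of the MHC class I complex at 7864 CPM and the calgranulin S100A12 at 7805 CPM. The 10 highest genes took 27.5% of the UMIs without LPS, and 30.5%, 27.8% and 28.8% of them in the LPS libraries. The list of common cytokines and chemokines summed to 181860, 258084, 208906 and 199740 CPM. CXCL2, CXCL3 and GRO1 lie next to each other in the RefSeq order of assembly ARS-UCD2.0 and are similar in sequence, so their reads, and those of CXCL5, could be split or exchanged between them.

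Each LPS library was compared with the library without LPS, which all comparisons share, over genes with at least 100 UMIs in the 2 sums. A gene was called by size alone, at a log2((CPM + 1)/(CPM + 1)) of at least 1 or at most -1. At 2 h, 203 of 5072 genes were at least 2-fold higher (4.00%) and 575 at least 2-fold lower (11.3%). At 4 h the numbers were 164 of 4762 (3.44%) and 341 (7.16%). At 8 h they were 102 of 4782 (2.13%) and 202 (4.22%). The median gene lay at -0.37, -0.15 and -0.09. Taken relative to that median, 359 genes were higher and 243 lower at 2 h, while 231 and 249 were at 4 h and 134 and 168 at 8 h, so the excess of lower genes at 2 h was lost. Higher genes were 26.1% of the 2 h calls as CPM, 59.6% relative to the median, 51.6% with TMM scaling, 59.5% with DESeq2 size factors and 41.4% with a pseudocount of 10 CPM. At 4 h they were 32.5%, 48.1%, 38.2%, 44.5% and 44.1%, and at 8 h 33.6%, 44.4%, 31.4%, 41.0% and 37.3%. With CD3E and MS4A1 allowed, the higher share was 30.7%, 46.9% and 60.7%, and with monocytes thinned to 2000 UMIs it was 36.3%, 29.4% and 26.9%.

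**Figure D2:**
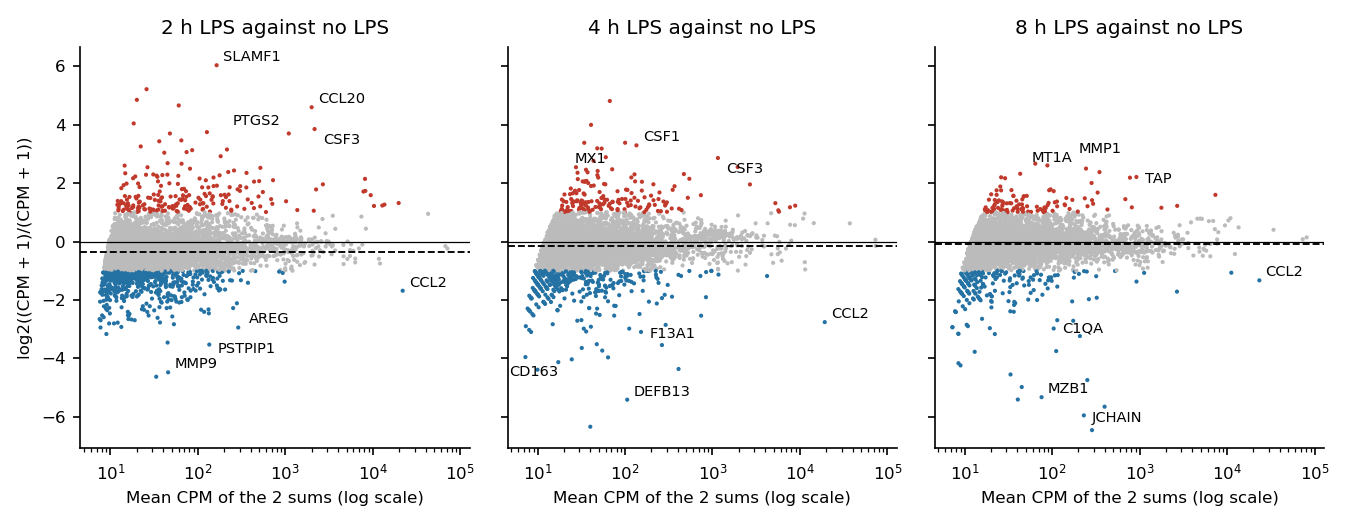
Log2 ratio of each LPS library to no LPS against the mean CPM of the 2 sums (log scale), 1 point per gene with at least 100 UMIs; red and blue points are genes called higher and lower, and the dashed line is the median gene. The 2 h panel has the most coloured points (203 higher, 575 lower), and its median lies lowest, at -0.37.

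Most of these genes were not cytokines. Of the 203 higher genes at 2 h, 18 were in the list of common cytokines and chemokines and 137 were in none of the 45 lists used. Only 25 genes of that list were tested at 2 h, so most of it was called higher, where 4.00% of all genes were. Of the 575 lower genes, 1 was in that list and 514 were in none. The share of all tested genes that lay in none of the lists is not given here. Over the 4 libraries, 288 of 5487 genes had at least a 4-fold range. Of the 25 common cytokines and chemokines considered, 12 had such a range. The highest level fell in the library without LPS for 107 of these genes (1.95%), at 2 h for 75 (1.37%), at 4 h for 66 (1.20%) and at 8 h for 40 (0.729%).

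SLAMF1, a homotypic receptor of immune cells, was at 3.94, 323, 77.8 and 45.3 CPM, with intervals of 2.64 to 5.66 without LPS and 303 to 344 at 2 h. Its log2 ratio was 6.04 at 2 h and 4.00 at 4 h. The receptor had UMIs in 36.1% of the thinned monocytes at 2 h (28.6 to 44.1%), against 0.426% without LPS, while in the T cells its level lay between 8.73 and 9.74 CPM. CSF3, the growth factor of granulocytes, was at 278, 4034, 2028 and 1272 CPM and had UMIs in 19.4%, 88.6%, 68.6% and 54.0% of the monocytes. PTGS2, the inducible cyclooxygenase of prostaglandin synthesis, was at 155, 2032, 580 and 416 CPM and had UMIs in 21.1%, 84.8%, 49.0% and 44.0%. CSF3 and PTGS2 were thus detected in a minority of monocytes without LPS and in most at 2 h, at log2 ratios of 3.85 and 3.70. In the T cells CSF3 was at most 8.43 CPM and PTGS2 at most 6.63 CPM in any library.

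CCL20, a chemokine that attracts cells with CCR6, was at 157, 3835, 785 and 505 CPM, and had UMIs in 3.83%, 34.8%, 11.8% and 14.0% of the thinned monocytes. One barcode held 48.8%, 66.2% and 47.8% of its UMIs without LPS, at 4 h and at 8 h. Among monocytes of at most 3000 genes its log2 ratio at 4 h was 0.92 instead of 2.31, and with CD3E and MS4A1 allowed its ratio at 8 h was 0.99 instead of 1.68. NOS2, which makes nitric oxide, was at 16.7, 237, 184 and 112 CPM and EDN1, the vasoconstrictor peptide endothelin 1, at 41.7, 322, 194 and 143 CPM. Among genes with a symbol and at least 200 UMIs in the 2 compared sums, NOS2 had the largest log2 ratio at 4 h (3.38) and at 8 h (2.67). EHF, an ETS transcription factor, was at 9.92, 119, 98.2 and 48.1 CPM. BATF, an AP-1 type transcription factor, was at 42.7, 387, 214 and 150 CPM, and in the T cells it was at 95.6, 248, 273 and 117 CPM. CD69, an early activation receptor, was at 3.67, 117, 130 and 3.63 CPM in the monocytes, with 48.5% of the UMIs at 4 h from 1 barcode, and the T cells held 20.5, 55.4, 45.0 and 33.8 CPM. For TBC1D4, at 5.98, 89.7, 28.2 and 30.8 CPM, 1 barcode held 23.4% to 62.1% of the UMIs of a library.

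NF-kB genes, some of them inhibitors of the LPS response, were among the higher genes. Of 20 NF-kB subunits and brakes tested, 11 were called higher and none lower at 2 h, where 4.00% and 11.3% of all genes were, and their median was 1.05. BIRC3, a ubiquitin ligase of NF-kB signalling, was at 153, 883, 397 and 355 CPM, with UMIs in 21.7% of the thinned monocytes without LPS and 78.5% at 2 h. The T cells held 105 to 202 CPM of it. TNFAIP3, the A20 enzyme that ends NF-kB signals, was at 273, 1173, 772 and 585 CPM. NFKBIA, the inhibitor that holds NF-kB in the cytoplasm, was already at 2448 CPM without LPS and at 4518 CPM at 2 h, a log2 ratio of 0.88, under the 2-fold limit. TNIP3, an A20 partner, was at 251, 734, 410 and 389 CPM. ZC3H12A, an RNase that degrades cytokine transcripts, was at 23.8, 139, 95.3 and 71.6 CPM. The caspase 8 inhibitor CFLAR was at 70.9, 373, 240 and 140 CPM and the inflammasome sensor NLRP3 at 63.3, 239, 169 and 113 CPM. In all 7 of these genes the highest of the 4 levels was that at 2 h.

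Soluble inhibitors and a pattern recognition molecule were also higher. IL1RN, the antagonist of IL-1, was at 1097, 4270, 4261 and 2449 CPM, so its 2 h and 4 h levels did not differ beyond counting error. IL10, an anti-inflammatory cytokine, was at 170, 707, 412 and 267 CPM. PTX3, a secreted pentraxin that binds microbes, was at 2999, 13280, 7460 and 4730 CPM and had UMIs in 95.6% of the monocytes at 2 h. F3, the tissue factor that starts coagulation, was at 99.0, 362, 190 and 113 CPM. ADM, the vasodilator adrenomedullin, was at 47.8, 176, 165 and 160 CPM, and its 3 levels under LPS had overlapping intervals. Of the transcription factors, ATF3 was at 128, 481, 354 and 232 CPM and PRDM1 at 68.6, 261, 164 and 160 CPM. The usual cytokines are given here only as a count: 18 of 25 were called higher and 1 lower at 2 h, 9 and 3 of 22 at 4 h, and 6 and 1 of 22 at 8 h, with medians of 1.43, 0.88 and 0.63. Of all genes, 4.00%, 3.44% and 2.13% were called higher at the 3 times, and 11.3%, 7.16% and 4.22% lower. The medians of all genes were -0.37, -0.15 and -0.09.

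Among the lower genes at 2 h, MMP9, a gelatinase, was at 88.3, 3.0, 6.81 and 25.4 CPM, a log2 ratio of -4.48 at 2 h, where its interval was 1.37 to 5.70 CPM. The growth factor AREG was at 513, 65.7, 70.0 and 134 CPM and had UMIs in 39.8%, 5.70%, 7.84% and 16.0% of the thinned monocytes. PSTPIP1, a cytoskeletal adaptor, was at 249, 20.7, 43.8 and 105 CPM. Its shares were 36.4%, 4.43%, 9.80% and 26%, while the T cells held 72.8 to 105 CPM and shares of 11.4 to 16.4%, so that at 2 h the monocytes lay below the T cells. ARRB2, an arrestin that uncouples receptors from G proteins, was at 83.4, 6.67, 25.3 and 43.5 CPM. TNFAIP8L2, an inhibitor of Toll-like receptor signalling, was at 87.9, 14.0, 30.1 and 57.1 CPM. PSTPIP1, ARRB2 and TNFAIP8L2 each had their lowest level at 2 h and a higher level at each later time. The tyrosine kinase FES (30.8, 4.00, 11.7 and 8.16 CPM) and the ETS factor ELK3 (28.3, 4.00, 16.5 and 19.9 CPM) were lower at 2 h as well.

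Of 12 complement genes tested at 2 h, 6 were called lower and none higher, with a median of -0.75 (all genes, -0.37). At 4 h 5 of 11 and at 8 h 5 of 12 were called lower, with medians of -0.54 and -0.83, and the shares of all genes called lower were 11.3%, 7.16% and 4.22%. These calls included C1QA, C1QB and C1QC at 2 h and 8 h, and C1QA and C1QC at 4 h. The C1Q UMIs came from few monocytes. At 4 h the ratios of C1QA and C1QC changed sign among monocytes of at most 3000 genes, as given below. Of 7 Fc receptors 3 were called lower at 2 h, FCGR1A among them, and the other 4 were not called. C5AR1, the receptor for the fragment C5a, was at 454, 104, 161 and 233 CPM and had UMIs in 59.1%, 22.2%, 23.5% and 40.0% of the monocytes, against 0.270% or less of the T cells. C5AR2, the other C5a receptor, was at 65.1, 8.67, 12.6 and 26.3 CPM. FCGR1A, the high-affinity IgG receptor, was at 111, 30.0, 36.0 and 68.0 CPM. CD36, a scavenger receptor for lipids, was at 543, 203, 146 and 350 CPM and had UMIs in 58.9%, 32.3%, 19.6% and 44.0%. For all 4 receptors the level at 8 h lay between the lowest level and that without LPS.

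Of 13 lipid efflux and droplet genes at 2 h, 5 were called lower and 1, ACSL4, higher, with a median of -0.82. At 4 h 5 of 11 were called lower (median -0.74) and at 8 h 1 of 12 (median -0.13), where 11.3%, 7.16% and 4.22% of all genes were called lower at the 3 times. PLIN2, which coats lipid droplets, was at 1415, 546, 849 and 885 CPM. CPT1A, which brings fatty acids into mitochondria, was at 144, 44.3, 64.2 and 99.7 CPM. NR1H3, the sterol-sensing receptor LXR alpha, was at 74.4, 18.0, 26.3 and 79.8 CPM, so that its levels without LPS and at 8 h had overlapping intervals. HMOX1, which breaks down heme, was at 221, 43.3, 194 and 148 CPM, with a log2 ratio of -2.32 at 2 h and -0.18 at 4 h. PYCARD, the adaptor that links inflammasome sensors such as NLRP3 to caspase 1, was at 420, 85.7, 109 and 106 CPM and was called lower at every LPS time, at -2.28, -1.94 and -1.97. It had UMIs in 53.0%, 12%, 15.7% and 18.0% of the monocytes.

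Among genes with a symbol and at least 200 UMIs in the 2 sums, 10 had the largest log2 ratios at 4 h. They were NOS2, CSF1, CSF3, MX1, CCL20, BATF, IFIH1, EDN1, IRF7 and ISG15. Of 16 interferon-stimulated genes tested at 4 h, 8 were called higher and none lower, with a median of 1.07, where 3.44% of all genes were called higher. At 2 h 1 of 15 was called higher (4.00% of all genes, median 0.25) and at 8 h 1 of 15 lower (4.22% of all genes, median -0.27), counts near those shares. ISG15, a ubiquitin-like protein, was at 199, 543, 888 and 169 CPM. MX1, an antiviral GTPase, was at 21.1, 29.7, 122 and 10.9 CPM and had UMIs in 3.4%, 3.80%, 23.5% and 4.00% of the thinned monocytes. In the T cells ISG15 was at 73.3, 470, 1599 and 176 CPM and MX1 at 20.2, 35.3, 270 and 47.0 CPM. IRF7, the interferon regulatory factor, was at 17.1, 24.3, 81.7 and 19.9 CPM, the RNA sensor IFIH1 at 15.9, 28.7, 80.7 and 3.63 CPM, and USP18, which removes ISG15, at 5.16, 14.0, 63.2 and 11.8 CPM. At 4 h these 5 genes were higher in the T cells than in the monocytes, and what part of the monocyte UMIs came from RNA of other cells was not tested. With CD3E and MS4A1 allowed, the log2 ratio of IFIH1 at 8 h was 1.12 in place of -1.87.

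CSF1, the ligand of CSF1R, was at 24.2, 60.0, 246 and 152 CPM, against 7.43 to 18.5 CPM in the T cells. It had UMIs in 2.13%, 3.16%, 17.6% and 12% of the thinned monocytes, and 1 barcode held between 27.2% and 46.6% of its UMIs in each library. Its log2 ratio was 3.29 at 4 h and 2.61 at 8 h. At 2 h it was 1.28, but 0.09 among monocytes of at most 3000 genes and 0.15 when monocytes were weighted equally. CXCR4, the receptor for CXCL12, was at 45.8, 64.0, 159 and 42.6 CPM, and the T cells held 606 to 805 CPM of it. ACOD1, which makes itaconate, was at 33.3, 102, 91.4 and 64.4 CPM, so that its 2 h and 4 h intervals overlapped.

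The genes lowest at 4 h included antimicrobial peptides and scavenger receptors. DEFB13, a beta-defensin, was at 208, 71.4, 3.89 and 14.5 CPM (4 UMIs at 4 h), DEFB10 at 103, 38.3, 6.81 and 46.2 CPM and DEFB7 at 1266, 600, 217 and 777 CPM. At 4 h their log2 ratios were -5.42, -3.74 and -2.54. Without LPS DEFB13 was uneven among the monocytes, with UMIs in 11.1% of them after thinning and a highest count of 48 UMIs. DEFB10 and DEFB7 are neighbours in the RefSeq order, and reads of similar defensins could be split between them, so single members are uncertain. Of 7 beta-defensins tested, 5 were called lower at 2 h, 4 at 4 h and 3 at 8 h, when TAP was called higher. All genes were called lower at shares of 11.3%, 7.16% and 4.22%. CD163, the scavenger receptor for hemoglobin, was at 47.3, 7.34, 1.94 (2 UMIs, 0.235 to 7.02) and 18.1 CPM. CLEC12A, an inhibitory lectin, was at 121, 30.0, 6.81 and 33.5 CPM and had UMIs in 21.7%, 6.33%, 1.96% and 8.00% of the monocytes. F13A1, the clotting factor XIII subunit, was at 274, 87.0, 31.1 and 65.3 CPM. Of the scavenger and phagocytic receptors, 5 of 11 were called lower at 2 h, 6 of 10 at 4 h and 3 of 10 at 8 h, with medians of -0.97, -1.76 and -0.21, and 1, OLR1, was called higher at 2 h.

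The immediate early transcription factors FOS and EGR1 were also lower. FOS was at 60.2, 9.0, 3.89 and 13.6 CPM and EGR1 at 129, 58.3, 21.4 and 54.4 CPM, both lowest at 4 h. NRN1, a small membrane-anchored protein known from neurons, was at 199, 36.7, 24.3 and 29.9 CPM and stayed low at 8 h, at a log2 ratio of -2.69. ASS1, which recycles citrulline to arginine, was at 129, 45.7, 27.2 and 50.8 CPM. CCL2 was at 33441, 10400, 4936 and 13308 CPM. It had UMIs in 92.3%, 77.8%, 66.7% and 74.0% of the thinned monocytes. In the T cells CCL2 stood at 196, 51.3, 72.3 and 113 CPM and had UMIs in 32.6%, 6.84%, 2.64% and 18.8% of thinned barcodes, so RNA of this gene outside monocytes was also most frequent without LPS.

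At 8 h fewer genes were called than at 2 h or 4 h. MMP1, a collagenase, was at 112, 122, 254 and 584 CPM and had UMIs in 10.0%, 13.3%, 13.7% and 26% (14.6 to 40.3%) of the monocytes. TAP, the tracheal antimicrobial peptide, was at 326, 618, 393 and 1512 CPM, with UMIs in 11.3%, 20.3%, 17.6% and 24.0%, and 31.4% of its 8 h UMIs came from 1 barcode. Of the metallothioneins, which bind zinc and copper, MT2A was at 3650, 11968, 7661 and 11056 CPM. MT1A was at 72.7, 97.7, 8.75 and 415 CPM, but at 8 h 10.0% of the monocytes held a UMI of it and 1 barcode held 51.3% of the UMIs. Metallothioneins are similar in sequence, so the split between them is uncertain. RETN, a cysteine-rich secreted protein of bovine and human monocytes, was at 1614, 1478, 1787 and 3764 CPM. MS4A7, a membrane protein of maturing monocytes, was at 75.8, 86.7, 123 and 215 CPM. With CD3E and MS4A1 allowed, the 8 h log2 ratios of RETN and MS4A7 were 0.57 and 0.74 instead of 1.22 and 1.49.

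The calgranulins, calcium-binding proteins of myeloid cells, were all highest at 8 h. S100A8 was at 3612, 3212, 4147 and 6233 CPM, S100A9 at 3361, 3134, 5174 and 5780 CPM, and S100A12 at 7805, 4756, 7210 and 12893 CPM. None of their log2 ratios at 8 h (0.79, 0.78 and 0.72) passed the 2-fold limit. Each of the 3 had UMIs in at least 78.5% of the thinned monocytes in every library. S100A12 lies between S100A8 and S100A9 in the RefSeq order of ARS-UCD2.0.

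IL1R2, the decoy receptor for IL-1, was at 124, 88.4, 26.3 and 348 CPM and had UMIs in 14.7%, 12%, 1.96% and 28.0% of the monocytes. At 8 h 1 barcode held 39.6% of its UMIs, and the log2 ratio of 1.48 became 0.60 when monocytes were weighted equally, 0.84 with at most 3000 genes and 0.05 with CD3E and MS4A1 allowed. IL7R, the receptor chain for IL-7, was at 501, 606, 786 and 1128 CPM (837 to 1022 CPM in the T cells). Its 8 h ratio of 1.17 was 0.55 among monocytes of at most 3000 genes.

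**Figure D3:**
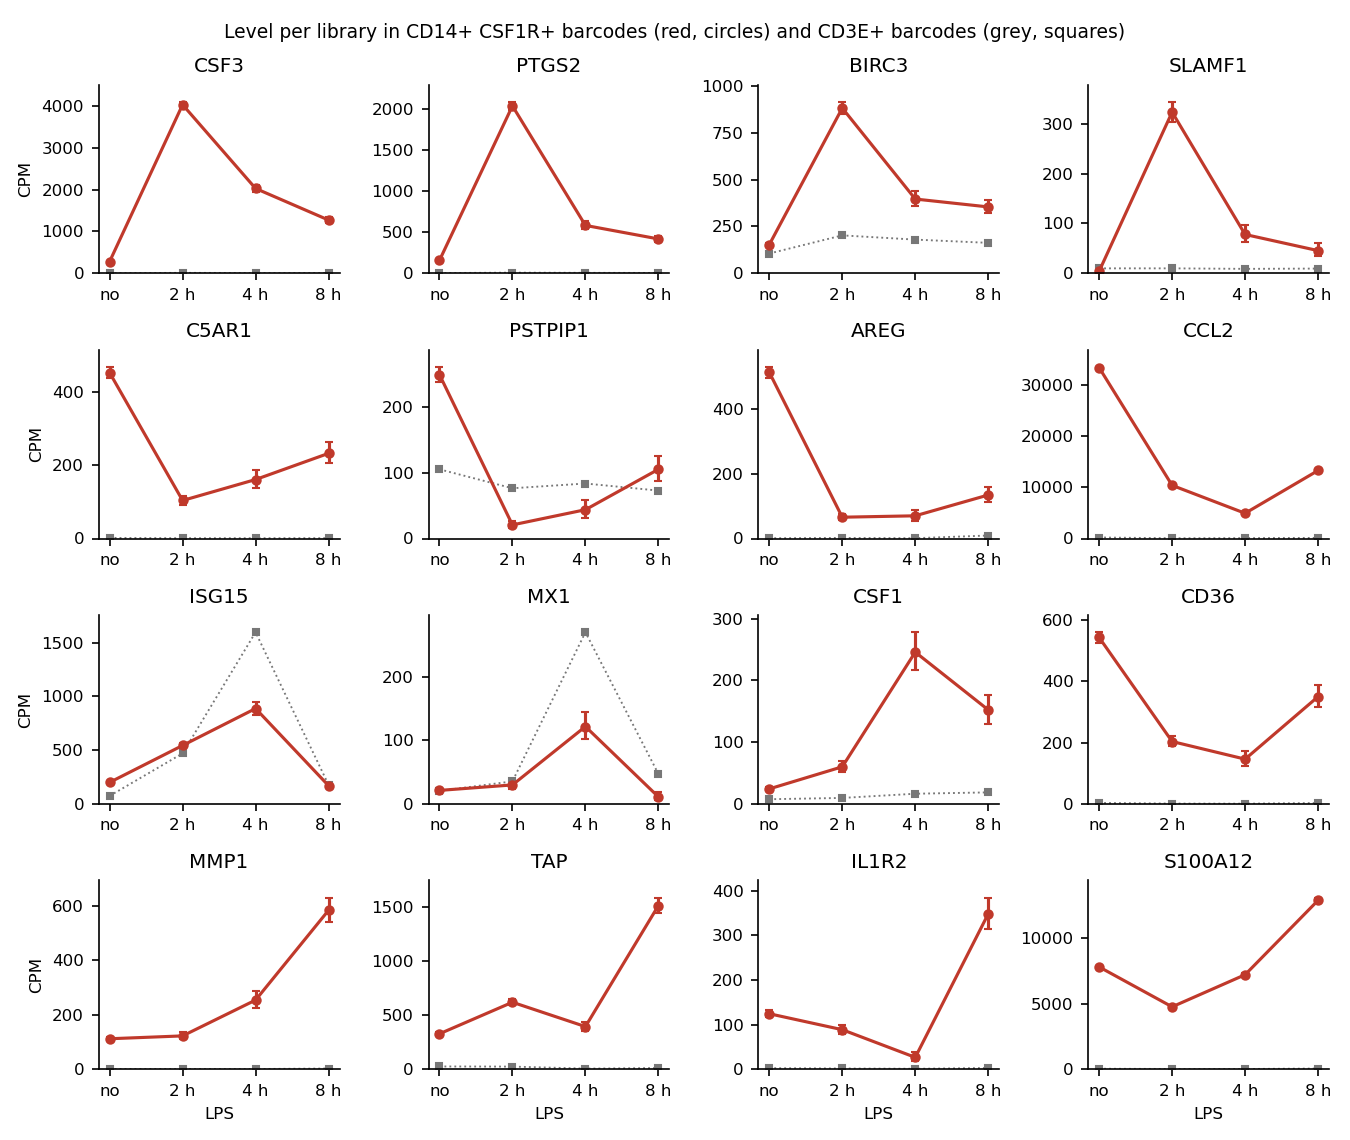
Level (CPM) of 16 genes in the CD14+ CSF1R+ monocytes (red circles, bars exact Poisson 95% intervals) and in CD3E+ T cells (grey squares) in the 4 libraries, with a linear axis from 0 in each panel. The top row is highest at 2 h (CSF3 4034 CPM), the second lowest at 2 h or 4 h (CCL2 4936 CPM at 4 h), ISG15 and MX1 are highest at 4 h in both cell groups, and the bottom row is highest at 8 h (MMP1 584 CPM).

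Among the genes lower at 8 h, SERPINB2, an inhibitor of plasminogen activators, was at 4099, 3310, 3644 and 1248 CPM and had UMIs in 75.5%, 72.8%, 72.5% and 52.0% of the monocytes, a log2 ratio of -1.72 at 8 h. CFP, the complement activator properdin, was at 61.9, 30.0, 17.5 and 10.9 CPM. TGFBI, a secreted matrix protein, was at 28.0, 14.7, 19.4 and 3.63 CPM (4 UMIs at 8 h). SRGN was at 15132, 8984, 7798 and 7215 CPM. JCHAIN had the largest negative log2 ratio at 8 h of the genes named by the rule, -5.95, with the few barcodes and the T cell share given above. With CD3E and MS4A1 allowed this ratio was -0.22. SPP1, the secreted phosphoprotein osteopontin, was at 88.0, 92.7, 14.6 and 1.81 CPM (2 UMIs at 8 h, 0.220 to 6.55), and 1 barcode held 28.4% to 66.7% of its UMIs in every library.

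The C1Q genes, which encode the subunits of the first complement component, came from few monocytes. C1QA was at 186, 52.3, 68.1 and 22.7 CPM, C1QB at 78.1, 21.0, 53.5 and 29.9 CPM and C1QC at 108, 31.7, 39.9 and 26.3 CPM. C1QA had UMIs in 7.87%, 4.43%, 5.88% and 4.00% of the thinned monocytes. One barcode held 9.96% of the C1QA UMIs without LPS but 42.0%, 60.0% and 80.0% in the LPS libraries. Among monocytes of at most 3000 genes the 4 h log2 ratios of C1QA and C1QC were 0.44 and 0.50 instead of -1.43 and -1.42. At 8 h no monocyte of at most 3000 genes held a C1QA UMI.

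At 2 h the cytokine list (1.43), the NF-kB list (1.05) and the costimulatory molecules (0.88, 4 of 11 higher and 1 lower) lay above the median gene, and the beta-defensins (-1.40), the scavenger receptors (-0.97), the matrix genes (-0.83) and the complement genes (-0.75) below it. In the matrix list 8 of 14 genes were called lower at 4 h and 6 at 8 h, while MMP1 was called higher. None of 79 ribosomal protein genes was called at any time, with medians of 0.02, 0.23 and -0.23. Of 77 genes of oxidative phosphorylation, none was called at 2 h and 1 in each direction at 4 h and 8 h, with medians of -0.29, -0.26 and -0.13. The 2 h sign of that list differed between scalings. No chaperone of 15 and no MHC class II gene of 3 was called at any time, and of 44 proteasome subunits 1 was called lower at 2 h, 1 at 4 h and none at 8 h. Of 29 lysosomal genes 2, 3 and 0 were called lower, where 11.3%, 7.16% and 4.22% of all genes were, and 0, 0 and 1 higher, where 4.00%, 3.44% and 2.13% were. TLR4 itself was at 86.5, 78.4, 114 and 94.3 CPM and was not called.

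**Figure D4:**
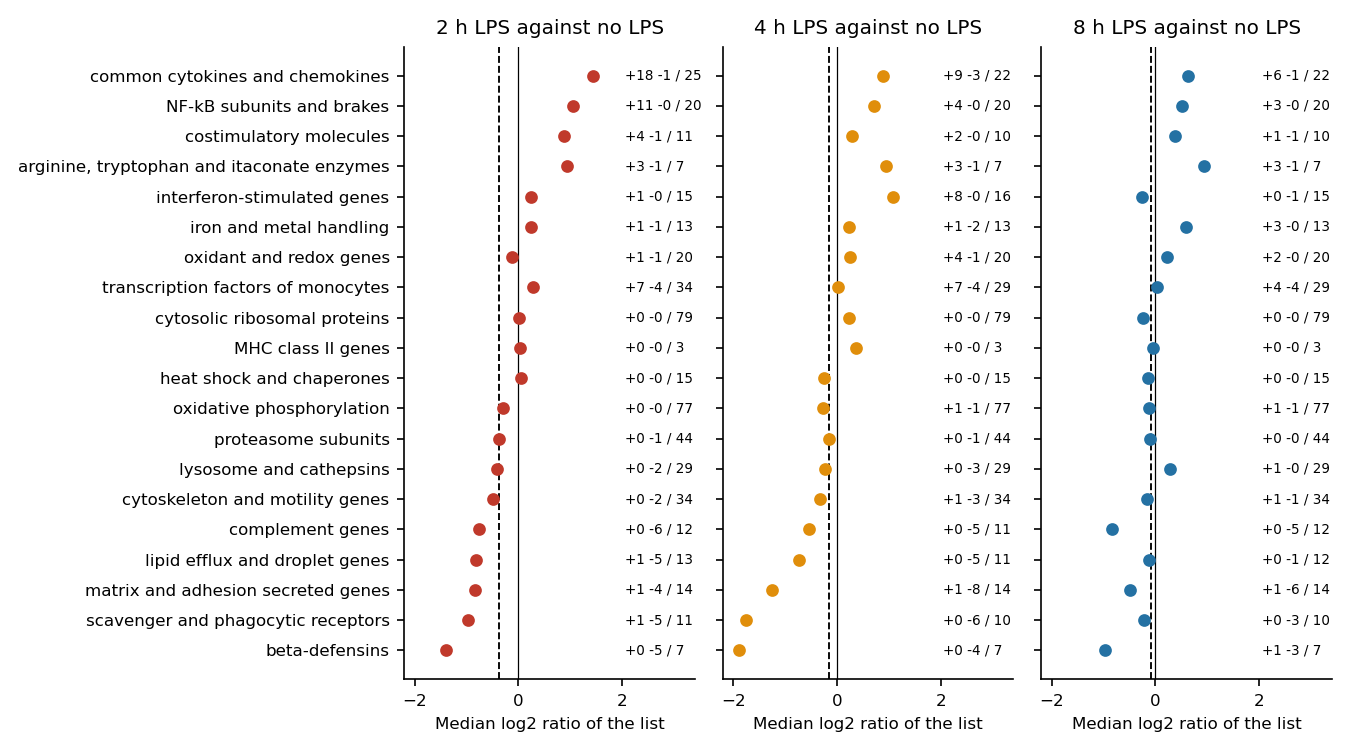
Median log2 ratio of 20 gene lists in the monocytes at each LPS time against no LPS, with a dashed line at the median of all genes tested (-0.37, -0.15 and -0.09) and, at the right, genes called higher, genes called lower and genes tested. Interferon-stimulated genes have medians of 0.25, 1.07 and -0.27 in the 3 panels, and ribosomal proteins have no call.

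With every monocyte thinned to 2000 UMIs, the variance over the mean of the UMIs was 1.14 for the median gene without LPS and 1.19 at 2 h. It was 59.4 for CCL2 and 54.8 for SAA2, a serum amyloid A gene, without LPS. FTH1 was at 47.2, 30.4, 27.3 and 39.7 and CXCL5 at 52.4, 31.2, 29.2 and 47.5. SAA2 had the highest value at 2 h (66.3), 4 h (49.1) and 8 h (63.1), with UMIs in 20.9%, 25.9%, 13.7% and 24.0% of the monocytes. SAA3, a related gene whose reads may be shared with SAA2, had UMIs in 48.5% of the monocytes without LPS and 74.1% at 2 h. The median SAA3 count was 0 UMIs without LPS and 13 at 2 h, and the highest was 180 UMIs without LPS. CCL8, a monocyte chemokine, was at 3021, 2923, 1747 and 2806 CPM with UMIs in 39.4%, 42.4%, 23.5% and 26%.

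IL1B and CCL20 show different kinds of spread. IL1B had medians of 14, 40.5, 27 and 26.5 UMIs in 2000, and at 2 h the tenth percentile was 21.7, above the median without LPS. CCL20 had a median of 0 in every library, and at 2 h 103 of 158 monocytes had none while 1 had 103 UMIs. CCL2 had medians of 49, 12, 2 and 14 UMIs. PTGS2 had a median of 4 at 2 h and 0 in the other libraries. In the plot of thinned UMIs, IL1B at 2 h lies above 0 in every monocyte, whereas most points of CCL20 lie at 0.

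**Figure D5:**
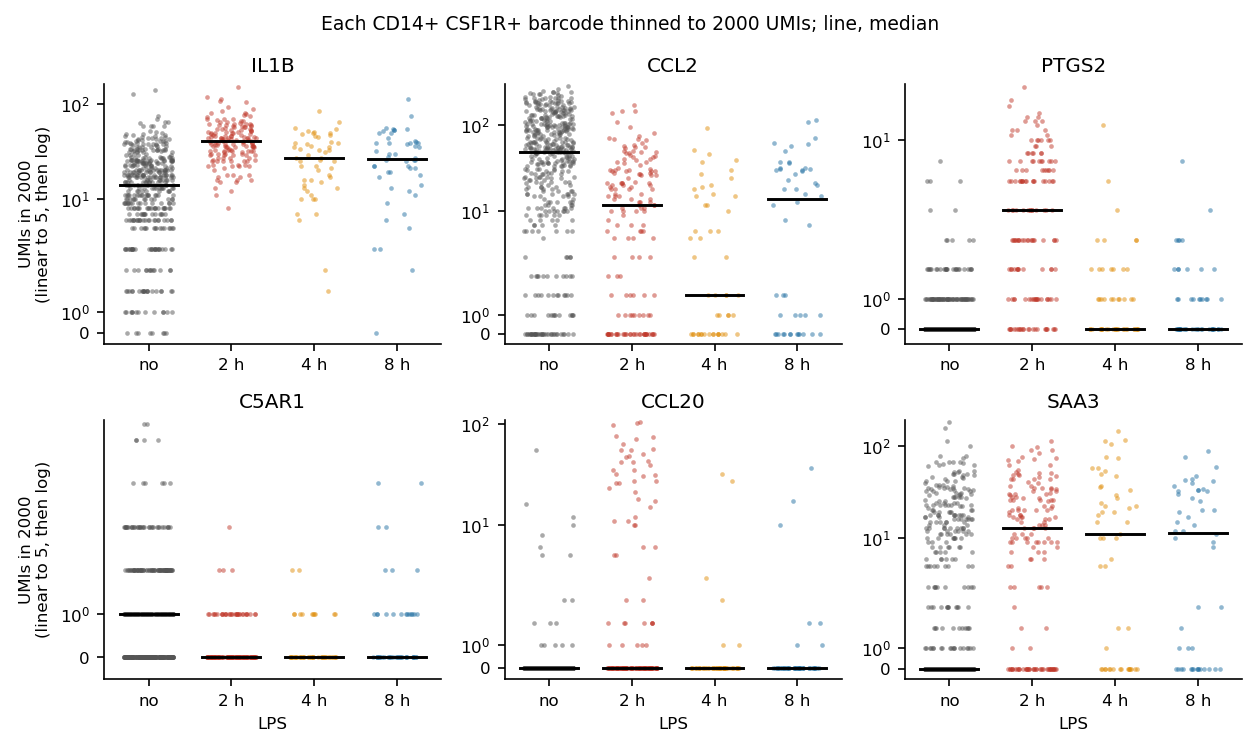
UMIs of 6 genes in each monocyte after thinning to 2000 UMIs (axis linear to 5, then log), 1 point per monocyte and a line at the median of each library. IL1B is above 0 in all 158 monocytes at 2 h, and CCL20 is at 0 in 103 of them.

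Without LPS, 276 of 4480 genes were at least 2-fold higher and 28 at least 2-fold lower in the 80 monocytes above 3000 genes than in the 390 others, after scaling to CPM. At 2 h the numbers were 346 and 42 of 2263, at 4 h 107 and 23 of 1102, and at 8 h 63 and 25 of 1199. Beside JCHAIN and MZB1, the ribosomal protein gene RPL7 was at 1179 CPM above 3000 genes and 512 CPM below without LPS, and at 1501 and 336 CPM at 2 h. C1QA was at 409 and 80.3 CPM without LPS. DEFB13 was at 22.9 CPM above and 295 CPM below. These values describe what a limit of 3000 genes would remove, and since the limit is set on genes per barcode, depth and other cells' RNA cannot be told apart in them.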

How the data were processed

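Droplet scRNA-seq was made from 4 libraries of pooled bovine blood mononuclear cells. The authors deposited 1 table of raw UMI counts per library, with genes in rows and cell barcodes in columns. Per their methods, Cell Ranger 3.1.0 aligned the reads to ARS-UCD1.2. Of the 21861 genes listed, 5070 had no symbol and PPBP was not listed in the tables used here. The chromatin accessibility data were not used. The deposited counts held 30756 barcodes, the paper's number of estimated cells, so they had already been called as cells. The paper's later quality-control limits on genes and UMIs had not been applied to them, and no doublet caller was run here.

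Monocytes were gated on raw UMIs, their counts summed per library and scaled to CPM, and each LPS time set against no LPS as log2((CPM + 1)/(CPM + 1)) over genes with at least 100 UMIs in the 2 sums. The members and the 45 gene lists were chosen with earlier results of these data known. With 1 library per treatment no test was run. The text names, per LPS time, the 10 largest log2 ratios in each direction among genes with at least 200 UMIs, the 10 highest levels without LPS, the 10 most variable genes per library, and members of the lists, the widest ranges first; not every gene that met the rule is named. Shares used barcodes thinned to 2000 UMIs. Alternatives changed the gate, the scaling (TMM in edgeR 4.0.16, size factors in DESeq2 1.42.0, used for scaling only), the pseudocount and the count minimum. The work used Python 3.11.15, numpy 2.4.6, scipy 1.17.1 and R 4.3.3, and the steps were tested on simulated data. Member sums held 7362108, 2999154, 1028495 and 1102857 UMIs, so 4 h and 8 h values are the least precise. Order of neighbouring genes came from the RefSeq table of ARS-UCD2.0, whose coordinates were not used.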

Additional observations from a re-analysis of the deposited data

How the results depend on the processing

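The gate set the share of monocytes. Without LPS, at 2 h, 4 h and 8 h it was 11.4%, 3.31%, 2.13% and 6.40% with any CD3E and MS4A1, 9.08%, 3.22%, 1.48% and 2.36% with CSF1R not required, and 2.49%, 0.326%, 0.192% and 0.547% with the gate applied after thinning. With at most 3000 genes it was 5.33%, 1.39% and 0.992% without LPS, at 2 h and at 8 h. With at least 4000 UMIs it was 9.74%, 2.77% and 0.933%, and with no UMI of 5 other-lineage genes 5.44%, 1.4% and 0.495%, without LPS, at 2 h and at 4 h. At 2 h the higher and lower genes numbered 322 and 302 with TMM, 361 and 246 with DESeq2 size factors, 359 and 243 when centred on the median, 77 and 135 with thinned monocytes, 328 and 1067 with at least 20 UMIs, and 130 and 246 with at least 300 UMIs, and the lower genes 204 with a pseudocount of 10 CPM. At 4 h they numbered 52 and 125 when thinned, 372 and 825 with at least 20 UMIs and 78 and 150 with at least 300 UMIs, with 256 higher when CD3E and MS4A1 were allowed and 151 lower with a pseudocount of 10 CPM. At 8 h they numbered 28 and 76 when thinned, 57 and 96 with a pseudocount of 10 CPM, 263 and 643 with at least 20 UMIs and 43 and 80 with at least 300 UMIs, with 238 higher when CD3E and MS4A1 were allowed and 307 lower with at most 3000 genes. Genes of a 4-fold range highest without LPS, at 2 h, 4 h and 8 h numbered 38, 35, 9 and 21 when thinned, 27, 36, 20 and 5 with a pseudocount of 10 CPM, 213, 150, 206 and 164 with at least 20 UMIs, and 53, 44, 14 and 12 with at least 300 UMIs. Those highest without LPS numbered 69 with CD3E and MS4A1 allowed and also 69 with DESeq2 size factors, those highest at 2 h 118 with TMM and 123 with DESeq2 size factors, and those highest at 8 h 23 with TMM and 62 when monocytes were weighted equally. The cause was not tested, except that thinning and a count minimum change how many genes are considered. CD14 at 1 or 3 UMIs and a mitochondrial limit of 20% moved none of these results.

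Of 204 log2 ratios of single genes, 36 were under 2-fold with CD3E and MS4A1 allowed, 16 with at most 3000 genes and 13 with CSF1R not required. With monocytes thinned to 2000 UMIs, 86 had too few UMIs for a value and 12 were under 2-fold. In that setting 50 stayed within their counting interval and 68 moved out of it. Over all alternatives the sign turned for 7. With CD3E and MS4A1 allowed ARHGDIB was at 0.26 at 4 h and 0.25 at 8 h, BCL2L15 at 0.14 at 8 h and IFIH1 at 1.12 at 8 h. With at most 3000 genes C1QA was at 0.44 and C1QC at 0.50 at 4 h, and with CSF1R not required SPP1 was at 0.15 at 4 h. The alternatives with any CD3E and MS4A1, with CSF1R not required and centred on the median were chosen after seeing the data. PPBP was left out of the other-lineage genes because it was not listed. Leaving out a replicate was not possible with 1 library per treatment. No paired analysis was possible because each treatment had 1 library.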
